A study of Mus musculus with 6 samples.

Results

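The genes described here build, brace and dismantle the actin cytoskeleton, in macrophage-like cells made from THP-1, a human line that grew out of a monocytic leukaemia. There were 51 of them, each matched by its name to exactly 1 of the 20036 gene rows of the expression table, and all 51 had enough reads to be tested. Melittin, a membrane-lytic peptide of bee venom, was given to the Melittin group (3 libraries) at 3 µg/mL for 48 h, during co-culture with tumour cells held in the upper chamber of a Transwell insert, whose porous floor separates it from the well. Before that the THP-1 cells had been treated with PMA, a phorbol ester that makes them adherent and macrophage-like, at 100 ng/ml for 48 h in the lower chamber. The NC group (3 libraries) served as the control; the labels do not state whether its wells held tumour cells, so melittin and co-culture cannot be told apart. The tumour cells are not named in the labels, the macrophages come from a single leukaemia line, and nothing says that the libraries of a group came from separate cultures, so the p-values cover the spread of these libraries, which may be technical. The organism label reads mouse, whereas all 20036 identifiers in the table are human, and the values are read as human.

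Actin is a globular protein that assembles into polar filaments. The Arp2/3 complex starts new branches on existing filaments when activated by proteins of the WASP and WAVE families, profilin and thymosins hold the monomer pool, and cofilins cut and dismantle old filaments. Tropomyosins coat filaments, myosin II pulls on them, bundling proteins tie them together, and talin, vinculin, zyxin and the Ena/VASP proteins couple them to adhesion sites. Macrophages rely on this machinery for spreading, podosomes, migration and phagocytosis.

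Libraries held 16192032 to 19521897 counts in the Melittin group and 16001423 to 19597781 in the NC group. Values are given as CPM (a gene's counts relative to the library total after TMM scaling, the default of edgeR), with the mean ± SD over the 3 libraries of a group. Levels of different genes are compared only as FPKM (the authors' fragments per kilobase of gene length, relative to all counted reads), which carry no TMM factor, so the FPKM ratio of the groups sits below the fitted fold change. In bulk RNA, fewer cells with a transcript and less of it per cell cannot be told apart. Of 11 macrophage markers, 9 were tested; 3 rose and 5 fell, and their summed level was 1274.0 to 1303.2 CPM with melittin against 1971.1 to 1976.0 CPM in NC, largely through CSF1R (log2 fold change −1.62). CD68 had 1 count in all 6 libraries together and MRC1 at most 8 in any. Whether read counting set the low level of CD68 was not tested. Among 10 epithelial markers, EPCAM, KRT5, KRT18 and KRT19 were at 0 counts in every library and KRT8 had 0 to 11 counts. A list of 6 fibroblast markers summed to 26.9 to 29.1 CPM in Melittin and 21.0 to 22.4 CPM in NC libraries. Most of that sum was COL1A1 (mean 24.7 CPM in Melittin and 18.7 CPM in NC libraries), while COL1A2 had 0 counts in every library. The part of these marker shifts in the results was not tested.

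The cytoplasmic actins themselves fell, while the rest of the machinery split. By the edgeR quasi-likelihood test with adjustment over all 12029 tested genes, 28 of the 51 members were lower and 14 were higher with melittin at an adjusted p of 0.05, and 9 did not pass. That is 54.9% lower and 27.5% higher, beside 38.3% lower and 38.1% higher among all tested genes. Among the 2079 tested genes with a mean of at least 100 CPM, 35.9% were lower and 54.3% higher, with a median log2 fold change of 0.13. Since 76.4% of all tested genes were called in either direction, the sizes of the changes are given beside the calls. In all, 33 members had a log2 fold change below 0 (50.4% of all tested genes did). The libraries of the groups did not overlap in 14 higher and 28 lower members. Of all tested genes, 38.3% were higher and 39.1% lower without overlap, 77.4% in either direction. At a fold of at least 1.5, 8 of the 51 members were lower and 6 higher, both smaller shares than the 20% and 19.5% of all tested genes. The test against a fold of 1.5 called 7 lower and 6 higher (background 14.4% and 14.6%). The median log2 fold change was −0.10 over the members and −0.01 over all tested genes. Scaling by library total, without TMM, moved the median of all genes by −0.23, and then 37 members were lower, 7 were higher and their median was −0.33. Among all calls the share of higher genes was then 33.6%, against 4578 of 9190 calls with TMM. All 51 members passed the low-count filter, 35 of them overlap no other gene of the table, 10 overlap one only on the opposite strand, and 6 on the same strand. Those 10 include TWF1 (which overlaps IRAK4), MYH10 (NDEL1) and RDX (ZC3H12C). The counter's strand setting is not given, and whether reads of the overlapping genes were counted with these members was not tested.

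**Figure D1:**
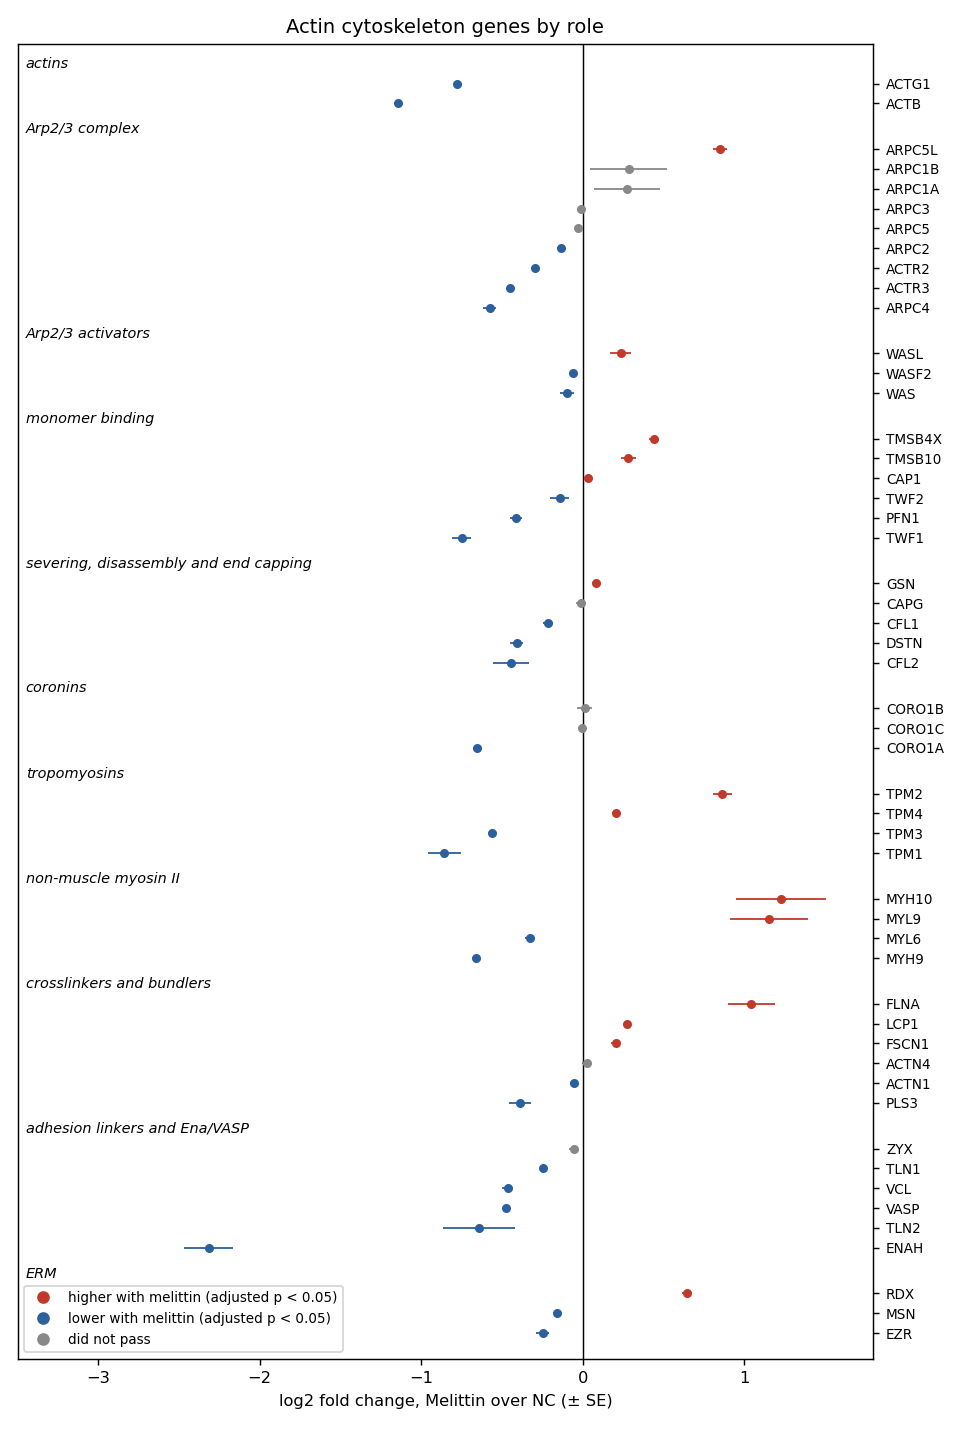
Log2 fold change (Melittin over NC) of the 51 actin genes, grouped by role, with bars for the SE and colour for the call of the edgeR test. Both actins, ACTB at −1.15 and ACTG1 at −0.78, and ENAH at −2.31 lie far left, while ARPC5L, TPM2, RDX, FLNA, MYL9 and MYH10 lie right of 0.6.

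The members together took 3.65% ± 0.00764 of all counts with melittin and 4.80% ± 0.0203 in NC. This share fell by 1.15 percentage points (2-sided exact permutation test, p = 0.1, the smallest that 3 libraries against 3 allow). Without CAP1, ACTB and ACTG1 it was 1.71% ± 0.0104 with melittin against 2.09% ± 0.00866 in NC. These shares carry no TMM factor, so the difference between the groups includes the shift of −0.23 on the log2 scale that total scaling gives the median gene.

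ACTB (beta-actin) and ACTG1 (gamma-actin) encode the filament subunit of non-muscle cells. ACTB lies on chromosome 7, 5526409 to 5563902, minus strand (GRCh38), and ACTG1 on chromosome 17, 81509413 to 81523847, minus strand. ACTB had 2564.6, 2659.7 and 2759.5 CPM in the Melittin libraries, against 5992.2, 5873.4 and 5797.7 CPM in the NC libraries. Every Melittin library was thus below the lowest NC library, and ACTB was 2.21-fold lower (log2 fold change −1.15, SE 0.0206, edgeR adjusted p = 2.15e-26). ACTB alone made up 0.238% to 0.254% of all counts with melittin and 0.627% to 0.65% in NC. ACTG1 had 1616.8, 1628.5 and 1612.9 CPM with melittin, against 2764.4, 2761.0 and 2801.8 CPM in NC, a log2 fold change of −0.78 (SE 0.0182, edgeR adjusted p = 9.26e-24). ACTG1 groups did not overlap either, and its fall was smaller than that of ACTB. Per length, ACTB held 60.2% ± 0.913 of the FPKM of the pair in Melittin and 66.1% ± 0.524 in NC libraries (exact permutation p = 0.1, the smallest possible; adjusted p = 0.107 over 16 such shares). The coding sequences of the pair are nearly the same, and both have processed pseudogenes, so reads shared between them cannot be assigned with certainty. The muscle actins ACTA1, ACTA2, ACTC1 and ACTG2 were too low to be tested, with means of at most 0.067 CPM in either group.

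**Figure D2:**
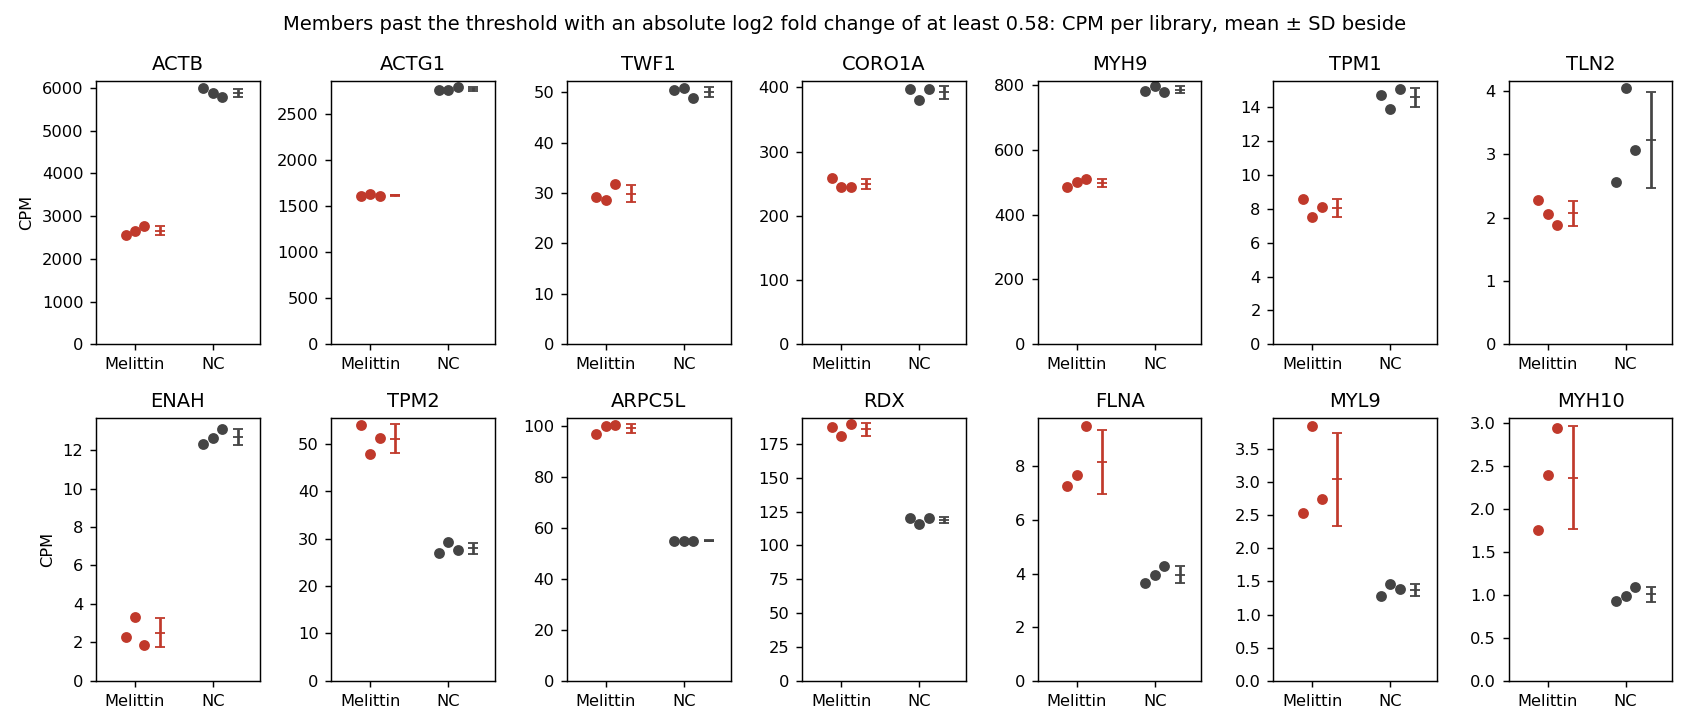
CPM in each library (points) with the mean and SD beside them, for the 14 members that passed the test with an absolute log2 fold change of at least 0.58; Melittin is on the left of each panel, and each axis starts at 0. The groups are apart in all 14 panels, with ACTB between 2564.6 and 2759.5 CPM in Melittin and between 5797.7 and 5992.2 CPM in NC libraries.

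The Arp2/3 complex nucleates branched filaments. Its actin-related subunits and 2 of its structural ones fell modestly, whereas ARPC5L rose. ACTR2, which encodes Arp2 and was the most abundant subunit per length, had 1305.8, 1273.2 and 1245.8 CPM in Melittin libraries, against 1542.3, 1585.3 and 1570.5 CPM in NC libraries. The groups were apart, at a log2 fold change of −0.30 (edgeR adjusted p = 8.23e-13). ACTR3 (Arp3) fell by 0.45, ARPC4 by 0.58 and ARPC2 by 0.14 on the log2 scale. ARPC4 shares its strand with the readthrough gene ARPC4-TTLL3, which had 0 counts in every library. ARPC3 and ARPC5 did not pass, with log2 fold changes of −0.01 and −0.03. ARPC3 and ARPC5 were called lower under total scaling (−0.24 and −0.26).

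ARPC5L encodes an alternative form of the ARPC5 subunit. It had 97.0, 100.2 and 100.4 CPM with melittin, against 55.0, 54.9 and 55.2 CPM in NC, and its groups lay far apart. ARPC5L was 1.8-fold higher (log2 fold change 0.85, SE 0.0409, edgeR adjusted p = 1.13e-16), a change that also passed the test against 1.5-fold (adjusted p = 4.04e-07). Since ARPC5 averaged 596.8 ± 17.8 CPM in Melittin and 609.4 ± 3.25 CPM in NC libraries, the balance of the pair moved: ARPC5 held 67.1% ± 0.464 of their summed FPKM with melittin and 79.0% ± 0.128 in NC (exact permutation p = 0.1, the smallest possible; adjusted p = 0.107). Of their raw counts, not divided by length, ARPC5 held 85.7% ± 0.256 with melittin and 91.7% ± 0.0587 in NC. ARPC1A and ARPC1B, alternative forms of a further subunit, were listed at only 3.12 ± 0.262 and 2.54 ± 0.539 CPM with melittin and 2.58 ± 0.462 and 2.05 ± 0.499 CPM in NC, and neither passed (adjusted p = 0.221 and 0.282). ARPC1A and ARPC1B overlap the same unnamed gene on their strand, which had 1 count in the 6 libraries. Whether read counting set the low levels of ARPC1A and ARPC1B was not tested. Per length, the subunits other than these 2 ran from ARPC5L at 25.4 ± 0.406 to ACTR2 at 291 ± 7.65 FPKM in Melittin libraries, and from ARPC5L at 16.5 ± 0.028 to ACTR2 at 420 ± 5.79 FPKM in NC libraries.

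The activators of Arp2/3 moved by little. WASF2 (WAVE2), the most abundant of the 3 per length, had 292.1, 290.7 and 296.1 CPM in Melittin libraries and 305.6, 304.3 and 305.9 CPM in NC libraries. WASF2 groups did not overlap, but the log2 fold change was only −0.06 (adjusted p = 0.0379) and the call ended without Melittin replicate 2 (adjusted p = 0.0955) and without NC replicate 1, 2 or 3 (adjusted p = 0.0716, 0.0618 and 0.0676, all edgeR). WAS, the blood-cell WASP mutated in Wiskott-Aldrich syndrome, had 62.7 ± 1.19 CPM in Melittin and 67.0 ± 1.45 CPM in NC libraries (edgeR adjusted p = 0.0486). That call ended without Melittin replicate 1 or 2 (adjusted p = 0.0847 and 0.119) and without NC replicate 1, 2 or 3 (adjusted p = 0.0512, 0.154 and 0.0575). WASL (N-WASP) rose by 0.23 on the log2 scale, with 33.8 ± 1.13 CPM with melittin and 28.7 ± 1.20 CPM in NC, and did not pass under total scaling (0.003).

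Among genes for proteins that bind the monomer, both thymosins rose and profilin and the twinfilins fell. TMSB4X (thymosin beta-4, the main monomer-sequestering peptide) had 2183.1, 2345.1 and 2079.6 CPM with melittin, against 1646.0, 1618.8 and 1604.2 CPM in NC. All Melittin libraries exceeded all NC libraries, and TMSB4X was 1.36-fold higher (log2 fold change 0.44, SE 0.0273, edgeR adjusted p = 3.23e-14). TMSB10 (thymosin beta-10) had 979.2, 1226.6 and 1235.0 CPM with melittin and 972.7, 932.4 and 924.2 CPM in NC. Melittin replicate 1 lay just above the NC range and far below the other Melittin libraries. The TMSB10 log2 fold change was 0.28 (SE 0.0479), and 0.05 (adjusted p = 0.317) under total scaling. PFN1 (profilin-1, which feeds monomers to growing ends) had 116.1 ± 5.29 CPM in Melittin and 154.4 ± 6.29 CPM in NC libraries, a log2 fold change of −0.41.

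TWF1 (twinfilin-1, which binds monomers and filament ends) had 29.3, 28.5 and 31.8 CPM in Melittin libraries, against 50.5, 50.7 and 48.9 CPM in NC libraries. The groups lay apart, and TWF1 was 1.68-fold lower (adjusted p = 3.58e-12, and 0.00404 against 1.5-fold). TWF2 had 36.1 ± 1.49 CPM with melittin and 39.7 ± 2.35 CPM in NC. The highest Melittin library (37.8 CPM) exceeded the lowest NC library (37.1 CPM), and its call (edgeR adjusted p = 0.0342) ended without Melittin replicate 2 or 3 (0.096 and 0.0952) and without NC replicate 1 or 2 (0.0866 and 0.15). CAP1 (cyclase-associated protein 1, which recycles monomers from cofilin) was listed above every other member per length, at 4039.7 ± 30.9 FPKM with melittin and 4642.0 ± 8.76 FPKM in NC, the gene with rank 4 by FPKM of all 20036. Whether read counting set the level of CAP1 was not tested. It had 16776.2, 16667.0 and 16631.0 CPM in Melittin libraries and 16343.6, 16356.1 and 16327.0 CPM in NC libraries. These groups did not overlap, yet the log2 fold change was 0.03 (edgeR adjusted p = 0.0209). The sign turned under total scaling (−0.20), and the call ended without Melittin replicate 1 (adjusted p = 0.082) and without NC replicate 1, 2 or 3 (0.102, 0.0976 and 0.125).

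**Figure D3:**
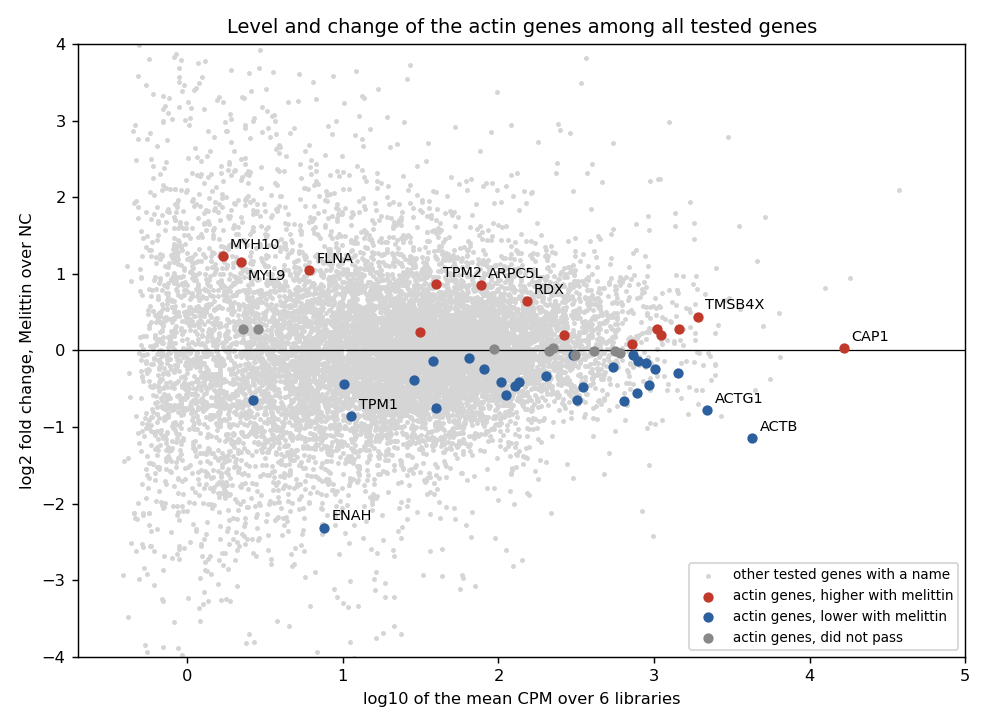
Log2 fold change (Melittin over NC) against the log10 of the mean CPM over the 6 libraries, for the 51 actin genes (coloured by call) and all other tested genes with a name (grey); 50 genes lie outside the axes. ACTB and ACTG1 stand out as abundant genes with a large fall, CAP1 is the most abundant member at a change near 0, and the members with the largest rises, MYH10, MYL9 and FLNA, are among the least abundant.

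Genes for filament disassembly fell and those for calcium-regulated capping hardly moved. CFL1 (cofilin-1, the main severing protein of non-muscle cells) had 503.1 ± 26.7 CPM with melittin and 583.9 ± 5.86 CPM in NC. CFL2, the muscle-type cofilin, had 8.63 ± 0.677 and DSTN (destrin) 89.0 ± 3.79 CPM in Melittin libraries, against 11.8 ± 1.09 and 118.2 ± 3.20 CPM in NC libraries. All 3 passed, with log2 fold changes of −0.22, −0.44 and −0.41. CFL1 made up 76.6% ± 1.75 of the FPKM of the 3 in Melittin and 74.1% ± 0.271 in NC libraries (exact permutation p = 0.1).

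CAPG, a macrophage capping protein of the gelsolin family and the most abundant gene of this set per length, had 435.6, 400.8 and 386.9 CPM with melittin against 416.7, 405.6 and 410.4 CPM in NC. Its groups overlapped fully and it did not pass (adjusted p = 0.757), though without Melittin replicate 1 it did, at a log2 fold change of −0.06 (edgeR adjusted p = 0.0255). GSN (gelsolin, which cuts and caps filaments) had 745.7 ± 24.3 CPM in Melittin and 704.5 ± 3.88 CPM in NC libraries, a log2 fold change of 0.08 that turned to −0.15 under total scaling.

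Coronins bind filaments and Arp2/3 and guide cofilin. CORO1A, the leukocyte coronin, had 258.8, 245.0 and 244.7 CPM with melittin, against 397.4, 381.0 and 398.2 CPM in NC. The groups were far apart and CORO1A was 1.57-fold lower (log2 fold change −0.65, SE 0.0285, edgeR adjusted p = 1.23e-17). CORO1C, the most abundant coronin per length, had 552.1, 560.7 and 572.4 CPM in Melittin libraries and 571.0, 560.5 and 556.2 CPM in NC libraries, with overlapping groups. Neither CORO1C nor CORO1B passed (edgeR adjusted p = 0.933 and 0.815), and CORO1B had 93.7 ± 6.68 CPM with melittin and 92.8 ± 3.26 CPM in NC. With total scaling both were called lower (−0.23 and −0.22).

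The tropomyosins, which coat filaments and set which other proteins may bind, were divided, with TPM1 and TPM3 lower and TPM2 and TPM4 higher. TPM2 lies on chromosome 9, 35681992 to 35690056, minus strand. It had 54.0, 47.9 and 51.2 CPM with melittin, against 27.0, 29.3 and 27.5 CPM in NC. The groups did not overlap, and TPM2 was 1.82-fold higher (log2 fold change 0.87, SE 0.0605, edgeR adjusted p = 4.47e-13). TPM1 had 8.58, 7.51 and 8.11 CPM in Melittin libraries, against 14.8, 13.9 and 15.1 CPM in NC libraries, and was 1.81-fold lower (adjusted p = 2.23e-08). TPM3 averaged 628.6 ± 4.58 CPM with melittin and 926.9 ± 12.6 CPM in NC, a log2 fold change of −0.56. TPM4, the most abundant tropomyosin per length, had 1185.2, 1177.3 and 1180.9 CPM with melittin, against 1031.9, 1044.4 and 999.3 CPM in NC. TPM4 libraries did not overlap (log2 fold change 0.20), but under total scaling the value was −0.03 (adjusted p = 0.263).

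Within each library the make-up of the tropomyosins therefore shifted. TPM3 held 27.0% ± 0.283 of their FPKM in Melittin and 39.8% ± 0.841 in NC libraries, and TPM4 held 62.1% ± 0.347 in Melittin and 53.8% ± 0.812 in NC libraries. TPM2 held 10.4% ± 0.539 with melittin and 5.70% ± 0.202 in NC, and TPM1 0.381% ± 0.0222 with melittin and 0.689% ± 0.0338 in NC. No library of one group reached the range of the other for any of the 4 (exact permutation p = 0.1 for each, the smallest possible; adjusted p = 0.107). These shares do not depend on how libraries are scaled, but they do depend on the gene lengths used. Of the raw counts, TPM3 held 33.6% with melittin and 46.5% in NC, and TPM4 63.2% with melittin and 51.4% in NC. TPM2 then held 2.73% with melittin and 1.40% in NC, and TPM1 0.432% with melittin and 0.731% in NC.

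**Figure D4:**
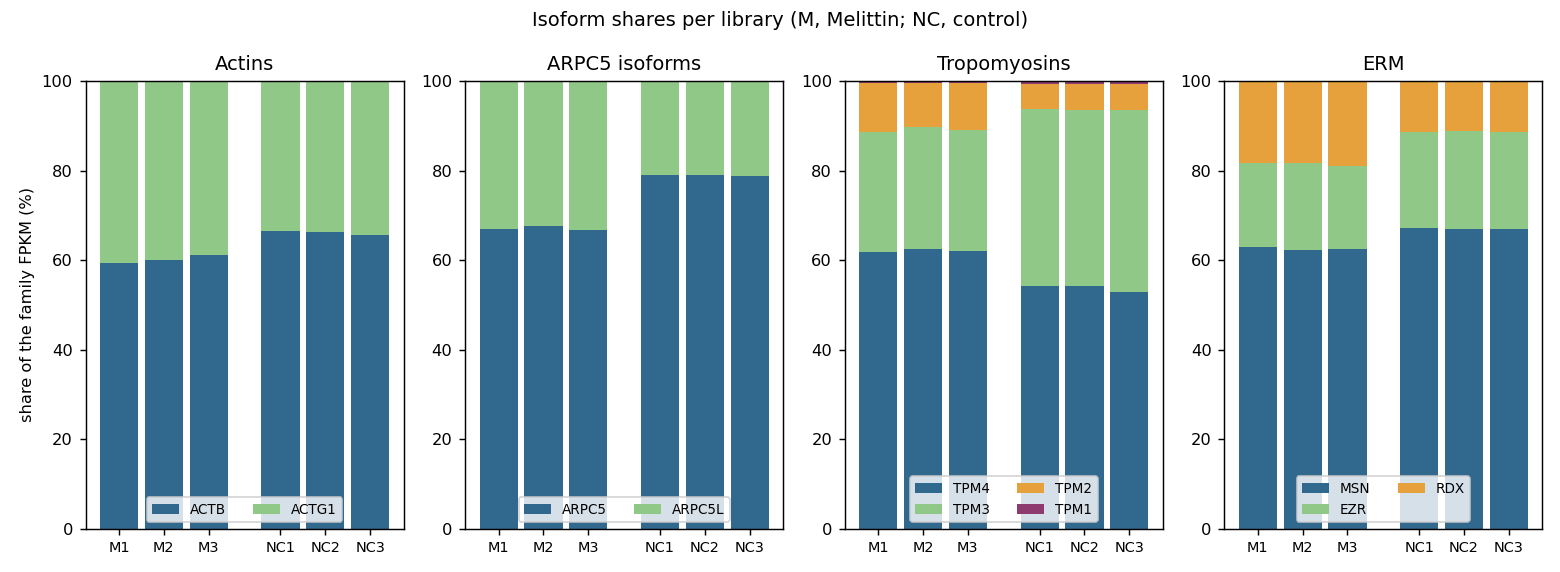
Share of each gene in the summed FPKM of its family (stacked bars, percent, 1 bar per library, with M for Melittin on the left and NC on the right). ARPC5L, TPM2, TPM4 and RDX take larger shares in all 3 Melittin libraries, and ACTB, ARPC5, TPM3, MSN and EZR smaller ones.

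Non-muscle myosin II pulls filaments together. Of its 4 members, MYH9 and MYL6 fell and MYH10 and MYL9 rose. The regulatory light chains MYL12B and MYL12A, of the wider list described further on, were chosen after their values were seen and were more abundant per length than all 4. MYL12B had 204.2 ± 6.50 FPKM in Melittin and 179.2 ± 2.97 FPKM in NC libraries, and rose by 0.42 on the log2 scale (edgeR adjusted p = 1.52e-13). MYL12A had 391.6, 480.1 and 489.5 CPM with melittin and 417.0, 401.5 and 405.7 CPM in NC, with overlapping groups. It passed at a log2 fold change of 0.15 (edgeR adjusted p = 0.00425), but not without Melittin replicate 2 or 3 (adjusted p = 0.0513 and 0.0531), and was at −0.08 under total scaling (adjusted p = 0.118). MYH9, the heavy chain of myosin IIA, had 484.3, 499.6 and 508.7 CPM with melittin, against 782.4, 796.9 and 777.4 CPM in NC. The groups were apart and MYH9 was 1.58-fold lower (log2 fold change −0.66, SE 0.0243, edgeR adjusted p = 2.72e-19). MYL6, the essential light chain and the most abundant of the 4 per length, had 183.9, 183.2 and 171.0 CPM in Melittin libraries, against 227.6, 225.2 and 223.5 CPM in NC libraries. It was lower in all 3 Melittin libraries (log2 fold change −0.33), and it overlaps MYL6B on the same strand, which had 424 to 707 counts per library, so reads of the pair cannot be fully told apart.

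MYH10, the heavy chain of myosin IIB, had 27, 43 and 44 counts in Melittin libraries and 19, 21 and 19 in NC libraries, which correspond to 1.76, 2.39 and 2.95 CPM and to 0.934, 0.989 and 1.10 CPM. MYH10 was 2.35-fold higher (SE 0.278 on the log2 scale, edgeR adjusted p = 2.67e-04), at a level of few reads. MYL9, a regulatory light chain best known from smooth muscle, had 39, 69 and 41 counts with melittin and 26, 31 and 24 in NC, or 2.54, 3.84 and 2.75 CPM against 1.28, 1.46 and 1.39 CPM. MYL9 was 2.22-fold higher, with groups that did not overlap. Per length MYH9 still made up 99.8% ± 0.0563 of the heavy-chain FPKM in Melittin and 99.9% ± 0.00596 in NC libraries.

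Among crosslinkers and bundlers LCP1, FSCN1 and FLNA rose, PLS3 and ACTN1 fell and ACTN4 did not pass. LCP1 (L-plastin, the leukocyte bundling protein) was the most abundant per length, with 1594.7, 1591.8 and 1588.9 CPM with melittin and 1302.1, 1336.4 and 1311.7 CPM in NC. LCP1 libraries did not overlap and it was 1.21-fold higher (log2 fold change 0.27, edgeR adjusted p = 9.40e-13), but 0.04 under total scaling (adjusted p = 0.0545). PLS3 (T-plastin, its relative of non-blood cells) had a log2 fold change of −0.39, and it took a share of the LCP1 and PLS3 FPKM of 1.89% ± 0.141 in Melittin and 2.97% ± 0.199 in NC libraries (exact permutation p = 0.1). FSCN1 (fascin, which bundles filopodial filaments) had 281.8 ± 4.4 CPM with melittin and 244.5 ± 3.47 CPM in NC, a log2 fold change of 0.20 that was −0.03 under total scaling.

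The alpha-actinins tie filaments of stress fibres and adhesions. ACTN1 had 717.5 ± 7.5 CPM with melittin and 745.5 ± 9.86 CPM in NC (log2 fold change −0.06, adjusted p = 0.0296), a call that ended without NC replicate 1 (edgeR adjusted p = 0.114). ACTN4 had 227.8 ± 4.4 CPM with melittin and 223.6 ± 2.97 CPM in NC and did not pass; under total scaling it was called lower (−0.20). FLNA (filamin A, which crosslinks filaments into nets) was listed with only 112, 138 and 142 counts in Melittin libraries and 74, 84 and 74 in NC libraries, which are 7.28, 7.68 and 9.51 CPM against 3.64, 3.95 and 4.27 CPM. All Melittin libraries were higher, and FLNA was 2.06-fold higher (edgeR adjusted p = 3.16e-07). FLNA overlaps no other gene of the table. How reads were counted is not given, and whether counting set this low level, and with it the size of the change, was not tested.

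All 6 genes for adhesion linkers and Ena/VASP proteins had a log2 fold change below 0, and 5 of the 6 passed, beside 50.4% of all tested genes below 0 and 38.3% called lower. ENAH, an Ena/VASP protein that promotes filament growth at leading edges, lies on chromosome 1, 225486765 to 225653142, minus strand. ENAH had 35, 60 and 28 counts in the Melittin libraries and 250, 268 and 227 in the NC libraries, or 2.28, 3.34 and 1.88 CPM against 12.3, 12.6 and 13.1 CPM. No Melittin library came near the NC range, and ENAH was 4.97-fold lower (log2 fold change −2.31, SE 0.152, edgeR adjusted p = 1.12e-13), the largest change among the 51. Its relative VASP, more abundant per length, had 292.1 ± 7.35 CPM with melittin and 405.6 ± 4.33 CPM in NC, a fall by 0.47 on the log2 scale.

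TLN1 (talin-1, which links integrins to actin), whose FPKM averaged over the 6 libraries was the highest of these 6 genes (ZYX was above it in Melittin and VASP in NC libraries), had 928.8, 926.0 and 912.8 CPM with melittin, against 1083.7, 1111.2 and 1087.0 CPM in NC. The groups were apart (log2 fold change −0.25, edgeR adjusted p = 4.32e-11). Its paralogue TLN2 was low, with 35, 37 and 28 counts in Melittin libraries and 52, 86 and 53 in NC libraries, or 2.28, 2.06 and 1.88 CPM against 2.56, 4.05 and 3.06 CPM. The TLN2 groups came close without overlapping, and its call (log2 fold change −0.64, edgeR adjusted p = 0.0106) ended without NC replicate 2 (−0.44, adjusted p = 0.121). VCL (vinculin, which reinforces talin) had 107.0 ± 4.26 CPM with melittin and 147.5 ± 0.716 CPM in NC, a log2 fold change of −0.47. ZYX (zyxin, a mechanosensor of adhesions) had 305.7 ± 7.11 CPM with melittin and 317.9 ± 4.58 CPM in NC. ZYX groups did not overlap, but it missed the threshold (edgeR adjusted p = 0.0572) and passed without Melittin replicate 3 (−0.08, adjusted p = 0.0172).

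The ERM proteins anchor cortical filaments to the membrane, and here the members diverged. MSN (moesin), the main ERM gene of these cells per length, had 864.5, 817.8 and 836.6 CPM with melittin, against 942.8, 929.8 and 938.6 CPM in NC. The groups were apart by a small step (log2 fold change −0.16, edgeR adjusted p = 6.65e-07). EZR (ezrin) had 73.4 ± 1.37 CPM in Melittin and 87.3 ± 0.424 CPM in NC libraries, a log2 fold change of −0.25. RDX (radixin), on chromosome 11, 109864295 to 110296712, minus strand, had 187.2, 180.5 and 189.8 CPM with melittin, against 120.0, 116.2 and 120.0 CPM in NC. RDX was 1.57-fold higher, with groups far apart (log2 fold change 0.65, SE 0.0321, edgeR adjusted p = 2.34e-16). RDX took 18.5% ± 0.382 of the ERM FPKM in Melittin and 11.4% ± 0.148 in NC libraries, and MSN 62.5% ± 0.381 in Melittin and 67.0% ± 0.106 in NC libraries (exact permutation p = 0.1 for both).

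By the cell-component terms of the deposited annotation, 31 members are placed at focal adhesions, and of these 17 were lower and 7 higher. Over all 51 members 28 were lower and 14 higher, so those at focal adhesions moved much as the whole list did. Of the 331 other tested genes with that term, 128 were lower and 161 higher. The members' median log2 fold change there was −0.14, and that of the other genes 0.12. Of 20 members placed at the lamellipodium, 10 were lower and 5 higher, beside 64 lower and 48 higher of 138 other tested genes. The 12 stress fibre members were split, with 4 lower and 5 higher, beside 28.2% lower and 43.6% higher of 39 other tested genes. Of the 6 podosome members 1 was lower and 4 were higher, beside 35% lower and 45% higher of 20 other tested genes. At ruffles 6 of 10 members were lower and 3 higher (other tested genes 44.2% and 36.4%). Filopodia had 6 of 9 lower and 3 higher (others 38.3% and 36.2%), and the cell cortex 5 of 10 and 4 (39.7% and 41.3%). Extracellular exosomes had 23 of 40 lower and 10 higher (35.5% and 46.1%), and the phagocytic cup 1 of 2 each way (43.5% and 43.5%). These terms were chosen after the values were seen, and the members share them in part, so the counts are a description.

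A further 98 genes of actin regulation were listed, of which 90 were tested. Of these 42 (46.7%) were lower, 33 (36.7%) higher and 15 did not pass, with a median log2 fold change of −0.05. Over all tested genes 38.3% were lower and 38.1% higher, with a median of −0.01. Among those with the largest falls were DIAPH3, a formin that elongates unbranched filaments, LIMA1 (EPLIN, which stabilises bundles), FERMT2 (kindlin-2, an integrin activator), MRTFB, an actin-sensing coactivator of the transcription factor SRF, and TMOD1 (tropomodulin-1, which caps pointed ends). LIMA1 had 30.3, 37.9 and 32.3 CPM with melittin, against 102.8, 106.2 and 105.8 CPM in NC. It was 3.12-fold lower, with groups far apart (edgeR adjusted p = 3.61e-20). FERMT2 had 38.4 ± 1.47 CPM with melittin and 90.9 ± 5.90 CPM in NC, and MRTFB 26.4 ± 1.13 CPM with melittin and 60.0 ± 2.12 CPM in NC. DIAPH3 (0.924 ± 0.35 CPM with melittin, 3.66 ± 0.295 CPM in NC) and TMOD1 (1.02 ± 0.215 CPM with melittin, 2.10 ± 0.193 CPM in NC) were low.

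Among the largest rises were those of CALD1 (caldesmon, a filament-binding brake on myosin), CAP2, the paralogue of CAP1, CYFIP2, a subunit of the WAVE complex, and MYH14, the heavy chain of myosin IIC. CAP2 had 29.2, 25.0 and 27.3 CPM with melittin, against 6.10, 7.01 and 5.49 CPM in NC, and was 4.34-fold higher (edgeR adjusted p = 9.14e-17). CYFIP2 had 14.5 ± 1.49 CPM with melittin and 3.85 ± 0.311 CPM in NC. CALD1 had 2.29 ± 0.78 CPM with melittin and 0.392 ± 0.172 CPM in NC, and MYH14 2.99 ± 0.429 CPM with melittin and 1.46 ± 0.607 CPM in NC, so both rest on few reads.

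Genes that switch the machinery on moved both ways; the 7 that follow were chosen after their values were seen. SRF, the transcription factor of many actin genes, had 132.2 ± 3.34 CPM with melittin and 150.9 ± 6.41 CPM in NC, and its coactivator MRTFA 23.7 ± 1.52 CPM with melittin and 38.6 ± 1.77 CPM in NC, log2 fold changes of −0.19 and −0.70. The kinases ROCK1 and ROCK2, which activate myosin II, fell by 0.29 and 1.03 on the log2 scale. ROCK2 averaged 61.4 ± 0.938 CPM with melittin and 125.4 ± 2.28 CPM in NC. The GTPases RHOA, RAC1 and RAC2, which act upstream of ROCK and the WAVE complex, had log2 fold changes of 0.28, 0.32 and 0.62. RHOA did not pass under total scaling (0.05, adjusted p = 0.0827).

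**Figure D5:**
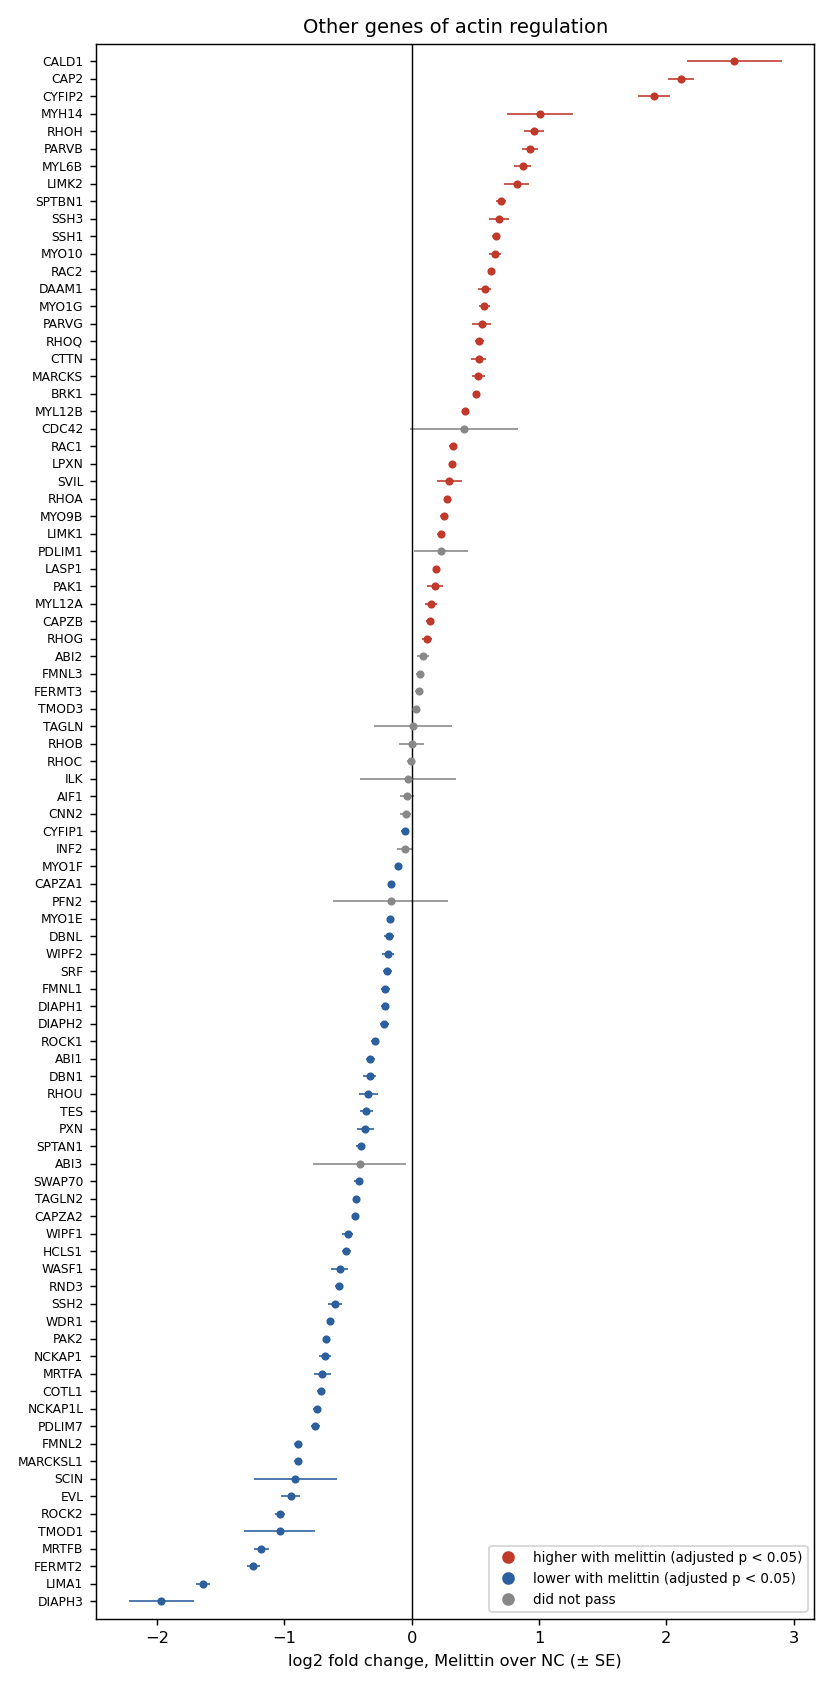
Log2 fold change (Melittin over NC, with SE) of 89 of the 90 tested genes of the wider list of actin regulators, from the largest rise at the top to the largest fall at the bottom. CALD1, CAP2 and CYFIP2 are at the top, and FERMT2, LIMA1 and DIAPH3 at the bottom.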

How the data were processed

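RNA was sequenced from 3 Melittin and 3 NC libraries. Per the submitters' processing notes the build was GRCh38; no source used here names the aligner, the counter, its strand setting or the annotation. The deposited table holds raw read counts per gene, which are the basis of every test, and FPKM values that the authors made from those counts, the gene length and the library's total count (recomputed here within a relative deviation of 2.23e-09 where counts were at least 20). A second deposited table repeats the FPKM within 3.52e-06 and served for that comparison only. Names and positions of genes come from the deposited table.

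Counts were tested with edgeR 4.0.16 in R 4.3.3 (filterByExpr, TMM factors of 0.921 to 0.926 in Melittin and 1.08 in NC libraries, glmQLFit and glmQLFTest, 2-sided, Benjamini-Hochberg over 12029 genes, threshold 0.05). The SE is the absolute log2 fold change over the square root of F. The common biological coefficient of variation was 3.01%. A single count was 0.0471 to 0.067 CPM. Alternatives used limma 3.58.1, DESeq2 1.42.0, other scalings and filters, and each library left out. Shares within a family were compared by exact permutation over libraries. Libraries of a group differed by more than sampling noise (chi-square per degree of freedom 1.73 to 3.92, against 164.6 to 197 across groups). The tests take each library as 1 replicate. Such a spread does not show that the libraries came from separate cultures.

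The members and lists were chosen with earlier results of these data known. Values per library are given for members past the threshold with an absolute log2 fold change of at least 0.58 and for the most abundant member of each role by FPKM; TMSB4X and TMSB10 were added after their values were seen. Of the wider list, the 5 largest rises and 5 largest falls with non-overlapping groups and at least 1 CPM were chosen. A gene of that choice, some epithelial markers and the sum of the epithelial list are not reported here. On simulated data with 200 of 12029 genes changed, the test recovered 89.6% of those changed 1.5-fold, 92.5% of 2-fold and 100% of 4-fold, and 3.09% of its calls were false. Every simulated gene had the same spread, close to the common value above, and few genes changed. In the real libraries the spread differed between genes and 76.4% of tested genes were called, so these rates need not apply to them.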

Additional observations from a re-analysis of the deposited data

How the results depend on the processing

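Against a fold of 1.5, 1761 genes of all tested were higher and 1734 lower, of the members 6 and 7, and of the wider list 10 and 15. Scaling by library total gave 7 higher and 37 lower members. The limma fits on log2(FPKM + 0.1) and log2(FPKM + 1) gave 6 higher and 37 lower each. Of all tested genes, 3160 were higher and 6244 lower under total scaling. The 0.1 fit called 3082 of all tested genes higher and 6156 lower, and the other 3096 and 6156. The members' median was −0.33 under total scaling, −0.23 with the 20 most abundant genes left out of the library size, −0.12 with no low-count filter, −0.33 and −0.28 with the FPKM fits (pseudocounts 0.1 and 1), and −0.17 with a length trend removed, which gives no calls. Those scalings and FPKM fits do not centre the data as TMM does.

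With each library left out in turn, 13 to 14 members were higher and 24 to 28 lower, with a median of −0.113 to −0.0818, 32 to 33 genes of the wider list were higher and 40 to 42 lower, and 4394 to 4552 genes of all tested were higher and 4440 to 4595 lower. Of the members, 40 kept direction and call in each of these fits. The sign of unpassed members turned: ARPC3 ran from −0.0298 to 0.0205, CAPG from −0.0629 (passed) to 0.0241, CORO1B from −0.0492 to 0.0462 and CORO1C from −0.0166 to 0.00697. The Melittin minus NC difference in the share of ARPC1B ran from −2.23 to 2.98 percentage points.

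Directions also turned under other settings. In the order total scaling, top 20 left out, FPKM + 0.1 and FPKM + 1, CAP1 was at −0.201, −0.102, −0.201 and −0.20, GSN at −0.149, −0.0505, −0.149 and −0.147, CORO1B at −0.219, −0.121, −0.218 and −0.207, and ACTN4 at −0.205, −0.106, −0.204 and −0.199. TPM4 was at −0.027, −0.0265 and −0.0263, FSCN1 at −0.0267, −0.0261 and −0.0258, and MYL12A at −0.0777, −0.0848 and −0.0842, under total scaling and both FPKM fits. CORO1B was at −0.00668 with no filter, and CORO1C at 0.00198 with median-of-ratios factors and 0.00188 by DESeq2. With a length trend removed, ARPC5 was at 0.128, CAP1 at −0.0417, TMSB10 at −0.43, CORO1C at 0.0512, ACTN1 at 0.163 and MSN at 0.0138. The cause was not tested.

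Replicate numbers did not pair the libraries: correlations of same-numbered libraries were −0.0472, 0.0135 and −0.0213. With the replicate number as a block, 14 members were higher and 27 lower (median −0.0973), 33 and 41 of the wider list, and 4513 and 4537 of all tested. Chosen after seeing the data, the 35 members that overlap no other gene gave 10 higher and 21 lower. The 44 members averaging 10 CPM or more gave 11 higher and 26 lower. Without these filters, 38.1% of all tested genes were higher and 38.3% lower. The shares of all tested genes under the same filters were not computed. Depth limits MYH10, MYL9, TLN2, ARPC1A and ARPC1B, which were under 5 CPM.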
